A study of Mus musculus with 2 samples.

Results

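Introns of 50 to 99 bases that were often spliced were described in mouse subcutaneous fat, the fat pad that lies under the skin. They were selected by their measured values in a splice junction table of genome build mm9: a length of 50 to 99 bases, 100 or more reads, and reads under both of the read numbers, R1 and R2, that each junction name carries. By this rule 4951 of the 480876 junctions were chosen, and they are called short introns below. They were set beside the 53803 junctions of 100 bases or more that met the same read rule, called longer introns, and beside the 6430 of these under 200 bases, called the next length class. Length, reads and the presence of both numbers chose the short introns, so their values are descriptions and no test was made on them.

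The study had a single group of 2 libraries, labelled as biological replicates 1 and 2. The RNA came from 8-week-old C57BL/6J mice, littermates of both sexes whose tissue was pooled, and the labels give no treatment. RNA over 200 nt with a polyA tail was sequenced as stranded read pairs of 76 nt after removal of ribosomal RNA. The junction table reads both libraries together, and no label ties R1 or R2 to replicate 1 or replicate 2. R1 and R2 summed to 20608101 and 21401551 reads. Whether each number holds the reads of 1 library is not stated. If it does, each side of the comparison is 1 library, and no p-values were computed. The intervals given are 95% counting intervals and do not hold the spread between animals. The labels name no molecular identifiers for the reads, and introns of 1 gene share its RNA, so neither reads nor introns are independent.

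The tissue label was checked in the gene tables. The 5 adipocyte markers Adipoq, Plin1, Fabp4, Cidec and Lep were all detected and summed to 4659 TPM in replicate 1 and 17151 TPM in replicate 2. The 5 epithelial markers Krt8, Krt18, Krt19, Epcam and Cldn3 summed to 629 and 13.5 TPM, and the smooth muscle markers Acta2, Myh11 and Cnn1 to 4039 and 455 TPM, with no marker at 0. The libraries therefore differed in the makeup of their RNA, with the adipocyte markers lower and the epithelial and smooth muscle markers higher in replicate 1. Fewer cells of a type and less RNA per cell cannot be told apart in such bulk samples. The part that this difference plays in the R1 and R2 values below was not tested.

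An intron is a stretch of a gene that is copied into RNA and then cut out by the spliceosome, which joins the exons on either side. The donor site lies at the intron's 5′ end and the acceptor site at its 3′ end. Between them lies the branch point, which the spliceosome needs room to reach, so very short introns are rare in mammals. Short introns are thought to be recognised as a unit across the intron, whereas the sites around long introns are mostly paired across the exon. In mammals, strongly expressed genes tend to have shorter introns than others. A read aligned across a junction is counted as use of that junction, which can also arise where no intron was removed.

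Most junctions of this length were rare. Of the 33169 junctions of 50 to 99 bases, 28201 (85.0%) had fewer than 100 reads and 15461 (46.6%) had a single read. The chosen 4951 nevertheless held 95.5% of the reads of all junctions of this length, 4047764 in total, which was 9.64% of the reads in the whole table. They were 8.43% of all junctions that met the read rule. A further 17 junctions of 100 to 323 reads were left out because R2 was 0, and none because R1 was 0. On the plus strand lay 2334 short introns and on the minus strand 2617.

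Nearly all short introns carried a flag that went with annotated intron lengths. Each junction name holds a flag A that no source used here defines. Among junctions of 20000 bases or more, 98.6% of the 7745 with A and a second flag C both at 1 had exactly the length of an intron annotated in GENCODE release M21, against 0.273% of the 89267 with both at 0. Flag A was 1 in 4891 short introns (98.8%, 98.4 to 99.1), in 97.5% of the longer introns and in 15.6% of the junctions of 50 to 99 bases below 100 reads.

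The lengths formed a broad crest between 80 and 89 bases. The most frequent length was 82 bases, with 239 short introns (Poisson interval 210 to 271), followed by 89 bases with 234. Of the 10 lengths from 80 to 89 bases, 9 had counts within the interval of the top one, so the crest has no single peak that counting error would resolve. These 10 lengths held 2229 short introns, those of 70 to 79 bases held 1072 (21.7%) and those of 90 to 99 bases 1569 (31.7%). The median was 86 bases, with quartiles of 80 and 91.

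Below 70 bases the numbers fell steeply. There were 72 short introns of 60 to 69 bases and 9 of 50 to 59, and none of exactly 50. The share of all junctions of a length that met the read rule was 0.195% at 50 to 59 bases, 1.64% at 60 to 69, 16.7% at 70 to 79, 23.2% at 80 to 89 and 19.3% at 90 to 99. This lower edge therefore lay inside the chosen range, and the upper bound cut through a slope: 120 introns were 99 bases long, 125 were 100 and 122 were 101. Of the lengths from 45 to 49 bases, none had a junction that met the read rule.

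**Figure D1:**
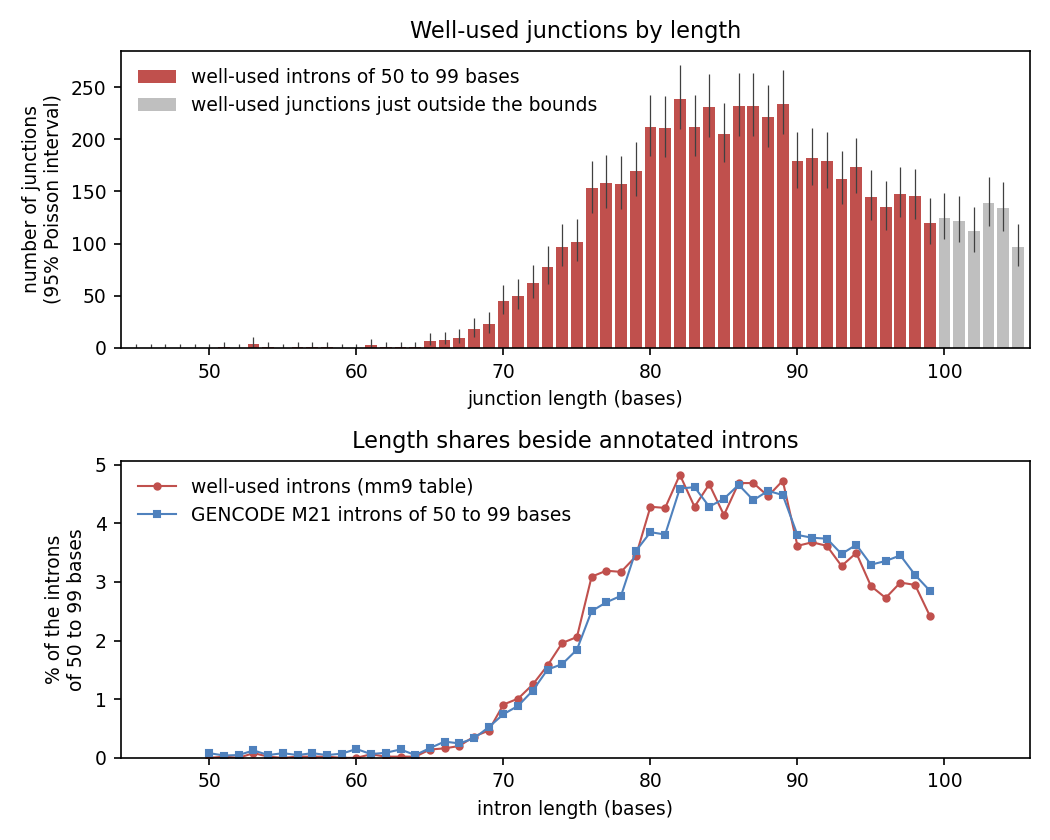
The upper panel plots the number of well-used junctions (y axis) at each length in bases (x axis), short introns in red and lengths just outside the bounds in grey, with 95% Poisson intervals. The lower panel gives the percent of introns of 50 to 99 bases at each length, for the short introns in red and the introns annotated in GENCODE M21 in blue, and both lines stand highest between 80 and 89 bases.

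Annotated introns had nearly the same lengths. The sets may hold many of the same introns, since 98.8% of the short introns carried flag A, so the likeness is no independent check. GENCODE M21 lists 284220 introns, of which 12629 (4.44%) are 50 to 99 bases long, with a median of 86 bases and quartiles of 80 and 92. Their most frequent length was 86 bases, with 588 introns. Annotated introns under 70 bases were 2.70% of that range, against 1.64% among the short introns in fat. Lengths divisible by 3, which would keep the reading frame if the intron stayed in a coding RNA, made up 32.8% of the short introns and 33.5% of the longer ones. By contrast, the longer introns spread from a most frequent length just above 100 bases to a median of 1135 bases, with quartiles of 413.5 and 2813.

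The short introns had somewhat more reads than the longer ones. Their median was 314 reads (305 to 324), with quartiles of 179 and 642, against 253 (251 to 255) for the longer introns, with quartiles of 154 and 498. The ratio of the medians was 1.24. Under R1 alone the medians were 170 and 135 reads, and under R2 alone 140 and 113, so the order was the same under both numbers. Of the 4951 short introns 743 had 1000 reads or more, against 5804 of the 53803 longer introns (10.8%).

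This gap lay between length classes far apart, not at 100 bases. The next length class had a median of 306 reads (297 to 314), and the ratio to it was 1.03. Among the short introns themselves the median moved little with length, from 315.5 reads at 60 to 69 bases to 313 at 90 to 99, and was lower, at 166, only among the 9 of 50 to 59. From 200 bases on it fell step by step, to 240 reads from 1000 bases up to 5000 and 222 at 5000 or more. All sets were held to the same read minimum, and the ratio of short to longer introns was 1.42 with a minimum of 50 reads and 1.11 with 200.

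Short introns had about as many reads as the longer introns beside them. Each short intron was paired, on either side, with the most used longer intron of the same strand that began or ended at most 300 bases away, which gave 6506 pairs for 4211 short introns. The short intron had more reads in 3268 pairs (50.2%), and the median log2 difference, short minus longer, was 0.01, with quartiles of -0.54 and 0.54. In 77.5% of the pairs the reads were within 2-fold. Both introns of a pair had to meet the read rule, so neighbours below 100 reads are not counted in this share. The R1 share of the reads differed by a median of 0.0395 percentage points, with quartiles of -4.40 and 4.48. Taking the most used neighbour tilts this comparison toward the longer intron, so it was repeated on the 6218 sides with exactly 1 longer intron in reach. There the short intron had more reads in 50.6% and the median log2 difference was again 0.01. For introns of the next length class against neighbours of 200 bases or more, paired in the same way, these values were 49.2% and -0.01.

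A few short introns held much of the reads. The 10 most used held 696358 reads, 17.2% of all reads of short introns. The 10 most used longer introns held 4.45% of theirs, in a set with many more members, so the shares are not on a like footing. The 99th percentile was 7662.5 reads against 6086 in the longer introns. The maximum was 296297 against 272541, again from sets of unlike size. The most used lay on chromosome 10, plus strand, mm9 chr10:79354358-79354447, was 90 bases long and had 108468 reads under R1 and 187829 under R2. It alone held 7.32% of the short introns' reads. Its donor was also joined to another acceptor 22 bases away in 1418 reads. Among junctions of 10 or more reads, 99.5% of the reads from that donor used the short intron.

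The next ranks were led by 1 locus on the minus strand of chromosome 11. The second most used, chr11:120669306-120669388 of 83 bases, had 28519 reads under R1 and 77894 under R2. The third, chr11:120670254-120670338 of 85 bases, had 18133 and 31552. In this second rank R2 was 2.63-fold higher after scaling to the totals of R1 and R2 (2.59 to 2.67), whereas the third stayed within 2-fold at 1.68 (1.65 to 1.71).

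Ranks 4, 5 and 8 lay there too. They were chr11:120671364-120671443 with 16298 and 24061 reads, chr11:120673272-120673352 with 17171 and 20644, and chr11:120674439-120674523 with 14131 and 18934, each with R2 the higher. Between 120669306 and 120681342 on chromosome 11 lay 15 short introns of 5000 reads or more, among them 9 of the 15 most used. Their reads ran from 7016 to 106413 with a median of 23530, their lengths from 73 to 91 bases and their R1 shares from 26.8% to 47.6%. Together they held 439183 reads, 10.9% of all reads of short introns. In the same stretch, 24 longer introns of 100 to 602 bases had 6812 to 58530 reads, with a median of 19281.5. The stretch is therefore strongly used through introns of both kinds, and every one of its short introns leaned to R2.

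Outside this locus, the sixth rank leaned the other way. It lay on the minus strand at chr5:143667156-143667242, with 20338 reads under R1 and 17277 under R2. The seventh, chr7:133941063-133941157 on the minus strand and 95 bases long, had 11285 and 24009, a ratio of 2.05 in favour of R2 (2.00 to 2.10). Of the 8 most used, then, 7 had more reads under R2.

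**Figure D2:**
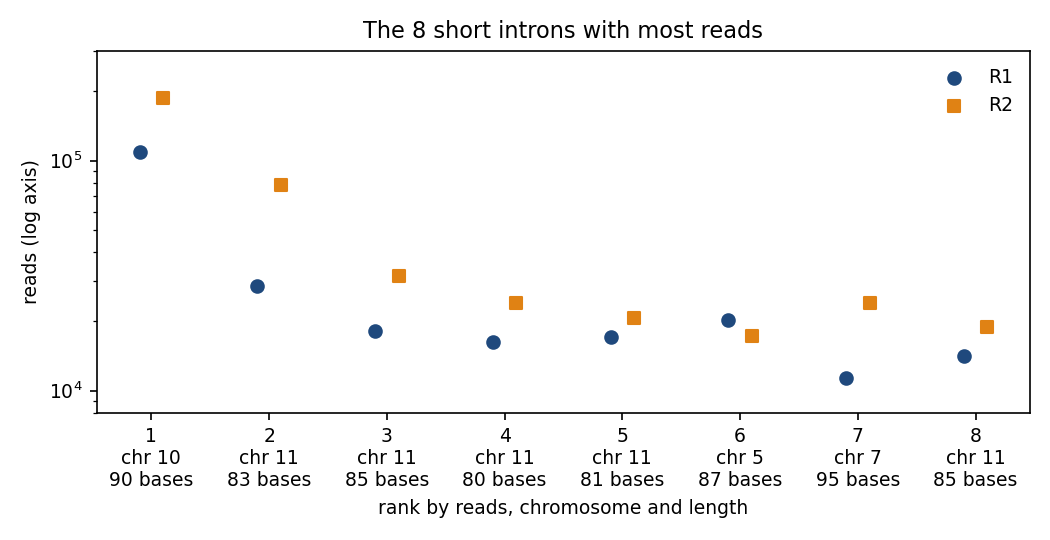
Reads under R1 (blue circles) and R2 (orange squares) of the 8 most used short introns, on a log axis, in order of their reads with chromosome and length. R2 lies above R1 in 7 of the 8, the exception being rank 6 with 20338 reads under R1 and 17277 under R2.

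Over all short introns the balance leaned the opposite way. The median R1 share was 54.6% (54.2 to 55.0), with quartiles of 45.5% and 63.2%, and 3157 short introns (63.8%) had more reads under R1. The longer introns had a median of 53.7% (53.6 to 53.9) and the next length class one of 54.8% (54.4 to 55.2). Summed over reads, R1 took 48.8% in the short introns and 48.1% in the longer ones. Over all junctions of the table R1 took 49.1% of the reads. The medians lay above this share, and the sums lay slightly below it. A sum counts each intron by its reads, and the most used introns leaned to R2.

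This turn with reads was seen at every step. The median R1 share of the short introns was 57.1% below 200 reads, 55.0% from 200, 53.2% from 500, 50.2% from 1000 and 43.1% from 5000 reads on. The next length class went from 57.2% to 40.9% over the same steps, and the longer introns from 55.7% to 39.8%. At a like number of reads, then, the short introns and the next length class had similar medians. Of the 73 short introns of 5000 reads or more, 15 came from the chromosome 11 locus above, with R1 shares from 26.8% to 47.6%. The median of this step without that locus was not computed.

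Reads were called over 2-fold apart when the whole exact interval of their ratio, scaled to the totals of R1 and R2, lay beyond 2-fold. R1 was higher in 532 short introns (10.7%, 9.90 to 11.6), near the 11.4% of all junctions that met the read rule. R2 was higher in 184 (3.72%, 3.21 to 4.28), against 4.51% of all such junctions. With R1 and R2 scaled so that the median junction was even, a log2 shift of -0.28, the counts were 346 and 292, so the share of calls on the R1 side fell from 74.3% to 54.2%. Calls for R2 rose with reads, from 2.37% of the short introns below 200 reads to 27.4% (20 of 73) at 5000 or more. Calls for R1 were 11.1% and 13.7% at these steps. In the longer introns, calls for R2 went from 2.48% to 30.2% and calls for R1 from 11.7% to 12.0%. More reads narrow the interval, which makes a call easier in either direction. With a bound of 1.5-fold in place of 2-fold, 28.2% of the short introns were called apart in either direction, with 3-fold 5.72%, and with 2-fold 14.5%.

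**Figure D3:**
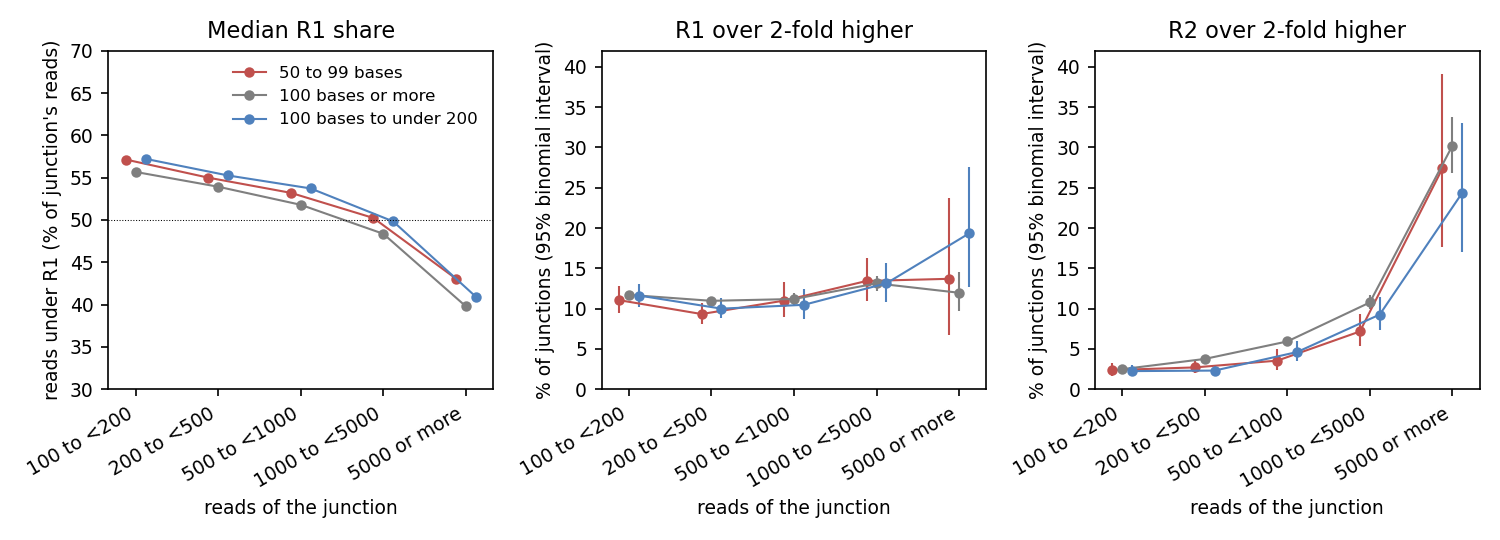
The left panel gives the median percent of a junction's reads that were under R1, the other panels the percent of junctions called over 2-fold higher under R1 and under R2 with 95% exact binomial intervals, all by reads of the junction (x axis). Short introns are red, the next length class blue and all longer introns grey, and the median R1 share falls with reads in each set, from 57.1% to 43.1% in the short introns.

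The most uneven short introns were nearly empty under R2. The intron chr7:31856218-31856310 on the minus strand, 93 bases long, had 376 reads under R1 and 1 under R2. On chromosome 15, minus strand, chr15:76443942-76444027 had 323 and 1, and chr15:76443094-76443184 had 724 and 3. These last introns lie under 1000 bases apart. On the plus strand of chromosome 9, chr9:108858753-108858837 had 244 reads under R1 and 1 under R2. All 4 carried flag A, and the scaled ratios, R1 over R2, were 390.5 (69.7 to 15464), 335 (59.8 to 13290), 250.6 (85.4 to 1218) and 253 (45.1 to 10049) in the order given.

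At the other end the unevenness was smaller and the introns were unflagged. The 4 furthest toward R2 all had both flags at 0. Of these, chr11:90123842-90123939 of 98 bases on the plus strand had 8 reads under R1 and 94 under R2, a ratio of 11.3 in favour of R2 (5.51 to 27.0). The other 3 were all 53 bases long, and they are described next.

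Junctions with flag A at 0 were 60 of the short introns (1.21%) and were more frequent at the short end. They made up 15 of the 81 below 70 bases, and 6 of the 9 below 60. Their reads ran from 102 to 1162 with a median of 203.5, against 316 for those with A at 1. The 53-base junctions were 4 in number and lay on 3 chromosomes. At chr19:4063314-4063366, minus strand, R1 was 13 and R2 was 152. At chr2:75478913-75478965, plus strand, the reads were 17 and 172. That length recurred at chr2:85861717-85861769, plus strand, with 13 and 149, and at chr17:35618136-35618188, plus strand, with 12 and 107. These 4 thus shared a length and had like reads under each number, although they lie far apart in the genome. No other length below 65 bases held more than 3 short introns.

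A further set of unflagged junctions lay on the mitochondrial chromosome, whose genes are known to have no introns in mammals. It held 3 of the short introns, at chrM:6451-6517, chrM:6454-6514 and chrM:6458-6518, with 83 and 169, 33 and 80, and 162 and 447 reads under R1 and R2. They overlap one another and share the plus strand. A junction of 61 bases, as long as the 2 shorter ones of these, was found at chr1:24622896-24622956 on the minus strand, with 24 reads under R1 and 115 under R2. The shortest of all short introns, in contrast, was flagged: chr1:90162854-90162904, minus strand, was 51 bases long and had 121 reads under R1 and 74 under R2.

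At the long end, 3 introns of 99 bases had the most reads. At chr9:78326666-78326764, minus strand, there were 16963 reads under R1 and 9488 under R2. At chr7:148645189-148645287, plus strand, there were 2642 and 10177. At chr2:164662758-164662856, plus strand, there were 2786 and 2224. The first leaned to R1 by 1.86-fold (1.81 to 1.90) and the second to R2 by 3.71-fold (3.55 to 3.87), while the third leaned to R1 by 1.30-fold (1.23 to 1.38). At the read minimum, 15 short introns had exactly 100 reads, with 27 to 73 of them under R1, and 16 junctions of this length had 99, with 41 to 78 under R1.

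Most short introns lay inside transcribed stretches. The deposited contig table lists such stretches by strand, and it was not used to choose the introns. Of the short introns, 4296 (86.8%, 85.8 to 87.7) lay wholly inside a contig of their own strand, against 31.0% of the longer introns, 4887 of the 6430 in the next length class and 35.7% of all junctions that met the read rule. A longer intron needs a longer unbroken contig to count as inside, so this share depends on length by its definition. By bases the sets were closer, with 93.0% of the intron covered on its own strand in short introns, 88.6% in the next length class and 68.6% in the longer introns. On the opposite strand 184 (3.72%, 3.21 to 4.28) were inside a contig, against 2.61% of the next length class and 1.12% of all such junctions. By bases the opposite-strand cover was 4.20%, 3.50% and 3.31% of the intron in these sets. The smallest gap between contigs of a strand was 11 bases, so narrower breaks could not be seen, and being inside a contig does not give the number of reads there.

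The share inside fell with length. It was 9 of 9 at 50 to 59 bases, 98.6% at 60 to 69, 94.2% at 70 to 79, 87.5% at 80 to 89 and 1255 of 1569 at 90 to 99. It went on to 78.0% from 100 bases up to 120, 75.4% up to 150 and 61.3% from 200 up to 500, and reached 1.02% at 5000 or more. It rose with reads as well, from 78.8% below 200 reads to 98.6% at 5000 or more. Within each read step the share was above that of the next length class, which went from 66.6% to 93.3%, although at 5000 reads or more the intervals overlapped, with a lower limit of 92.6% for the short introns and an upper limit of 97.1% for the next class. In the pairs of neighbours, 86.9% of the short introns and 60.7% of the longer introns beside them were inside. By bases the pairs were closer, at 93.2% and 87.2% of the intron covered.

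**Figure D4:**
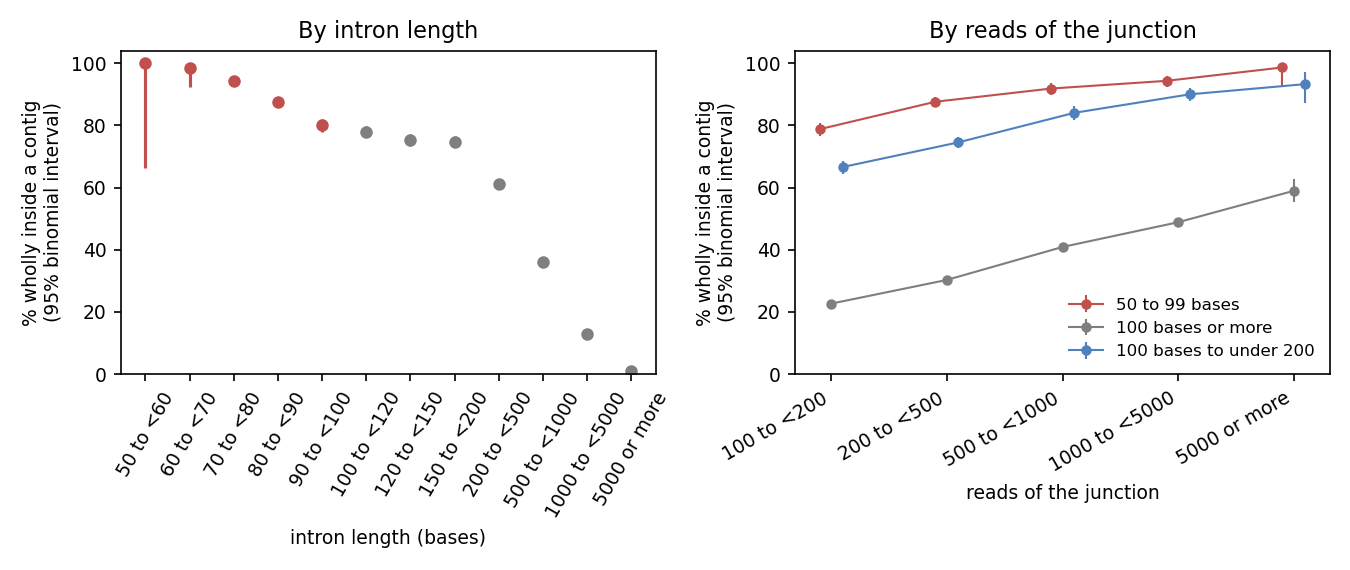
The percent of introns wholly inside a contig of the same strand (y axis) with 95% exact binomial intervals, by intron length on the left and by reads of the junction on the right. Short introns (red) fall from 9 of 9 at 50 to 59 bases to 1255 of 1569 at 90 to 99 bases, and at each step of reads they lie above the next length class (blue) and the longer introns (grey).

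Some heavily used short introns were covered only in part. A short intron at chr11:120359291-120359384, plus strand, had 3545 reads under R1 and 5171 under R2, and 69.1% of its bases were in contigs. At chr8:87494244-87494334, plus strand, the reads were 2443 and 2137, and 19.8% of the bases were covered. No base was covered in 22 short introns (0.444%), near the 0.393% of all junctions that met the read rule, and the most used of the 22 had 1463 reads. The median was 334 reads for the short introns inside a contig and 206 for the others.

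Few short introns had a competitor of 10 or more reads at a splice site. Another junction of 10 or more reads shared a donor or acceptor with 507 of them (10.2%, 9.41 to 11.1), against 16.3% of the longer introns, 13.3% of the next length class and 15.8% of all junctions that met the read rule. With competitors of any read number the share was 51.1%, and with those of at least 5% of the short intron's reads 6.18%. The shared site was the donor in 324 and the acceptor in 204, some having both. The competitor had a median of 5.96% of the short intron's reads, against 8.27% in the next length class and 12.3% for longer introns. Shares of the reads at a site, here and below, count only other junctions of 10 or more reads. In 172 short introns (3.47%) the share of the reads at a site was under 90%, against 5.97% of the next length class and 8.34% of all junctions that met the read rule. In 36 (0.727%) it was under 50%, against 1.74% and 2.78%. The share with a competitor of 10 or more reads was 22.2% (13.3 to 33.6) at 60 to 69 bases, 16 of 72. It was 2 of 9 at 50 to 59 bases, 11.7% at 70 to 79, 9.38% at 80 to 89 and 9.88% at 90 to 99. With reads it rose from 7.86% below 200 to 28.8% at 5000 or more. The next length class rose from 10.4% to 36.1% over these steps, and the longer introns from 13.7% to 40.5%.

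The competing sites often lay a few bases away. The distance was under 30 bases in 218 of the 507 (43.0%), against 34.0% in the next length class and 20.2% of all junctions with a competitor. It was 1000 bases or more in 108 (21.3%), against 23.9% and 44.1%. The next length class thus lay close to the short introns, and the longer distances belonged mostly to longer introns. A distance of 3 bases was found in 44 (8.68%), in all of them between acceptors of a shared donor, against 8.54% in the next length class and 6.07% of all. A distance of 4 bases was found in 43 (8.48%), of which 28 shared the donor, against 3.51% and 2.38%. Nearby acceptors of this kind are known as tandem acceptors, and those a codon apart add or remove an amino acid in a coding exon.

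Where the competitor was strongest, the short intron was the minor product. At chr7:106501476-106501562, minus strand, 87 bases long, R1 was 70 and R2 was 53, while another junction from its donor, with an acceptor 3501 bases away, had 16101 reads. The short intron thus took 0.733% of the reads from that donor, and no other junction of 10 or more reads entered its acceptor. At chr10:127929559-127929657, minus strand, the reads were 134 and 91, and the competitor, with an acceptor 100 bases away, had 3683. The third, chr5:36013781-36013873 on the minus strand, had 65 and 71 reads and took 4.11% of the reads into its acceptor. The fourth, chr7:26173673-26173771 on the minus strand, had 23 and 107 and took 4.02% of them. Of these 4, only the third carried flag A.

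A different case was a pair of equal length on chromosome 17. The 89-base introns chr17:34854755-34854843 and chr17:34936756-34936844, both on the plus strand, had 1262 and 1202 reads and 541 and 543 reads under R1 and R2. A junction of 2459 reads joined the donor of the first to the acceptor of the second, 82001 bases away. The first lay wholly inside a contig, and no base of the second was in one. Reads of near-identical gene copies can be placed in either copy, and whether that applies here was not tested. These introns were chosen after their values were seen.

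Many short introns lay near another short intron. With at most 500 bases between neighbours on a strand, 2060 short introns (41.6%) fell into 786 runs of at least 2, and 254 runs held 3 or more. The same share was not computed for longer introns, so whether runs are particular to short introns was not tested. The stretches between neighbours had a median of 131 bases with quartiles of 93 and 216, and 73.2% were under 200 bases. In 14 cases neighbours overlapped. Introns of a run had similar balance: the R1 share had an SD of 5.15 percentage points within runs and of 12.6 over all introns of those runs. For log2 reads the SDs were 0.71 and 1.40.

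The longest run had 15 short introns and lay on the minus strand at chr15:76429386-76433463. In the direction of transcription its introns had 140, 365, 267, 214, 134, 150, 106, 86, 219, 443, 286, 163, 105, 84 and 171 reads under R1. Under R2 they had 66, 232, 189, 110, 51, 64, 64, 38, 105, 198, 163, 81, 38, 30 and 98. R1 was above R2 in every one, with R1 shares from 58.6% to 73.7%, and both numbers were highest at introns 2 and 10 and lowest at intron 14. The most used intron of the run had 5.62 times the reads of the least used.

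Another run of 11 lay just downstream on the same strand, at chr15:76426363-76428405, with 170 to 703 reads and R1 shares from 56.1% to 70.4%. The run at chr15:76283809-76286301, minus strand, held 12 introns of 389 to 1009 reads, with R1 shares from 46.8% to 60.4%. On chromosome 14 a run of 12 at chr14:31952390-31955157, minus strand, had 490 to 1541 reads and leaned to R2, with R1 shares from 36.9% to 56.2%. In this run R1 was above R2 in the 2 introns at the 5′ end and in no other, with 386 and 368 reads in the first intron and 271 and 463 in the last.

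**Figure D5:**
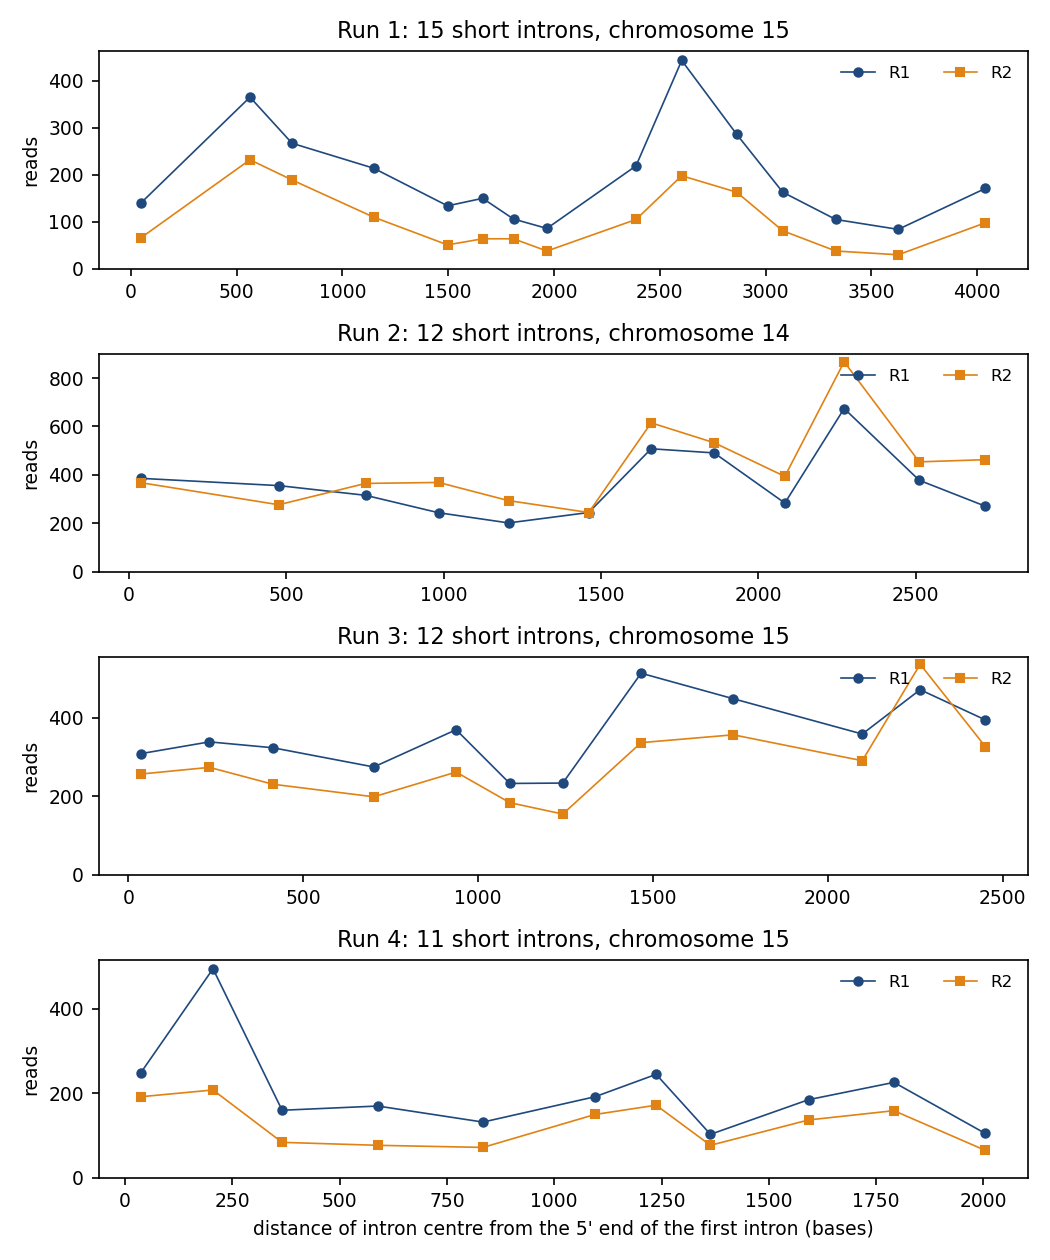
Reads under R1 (blue circles) and R2 (orange squares) of each short intron in the 4 longest runs, plotted against the distance in bases of its centre from the 5′ end of the first intron. Run 1, with 15 introns, has R1 above R2 throughout, and both numbers are highest at its introns 2 and 10.

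The short introns were spread unevenly over the chromosomes. They were 12.9% (11.8 to 14.0) of the junctions meeting the read rule on chromosome 17, 12.1% on chromosome 15, 11.8% on chromosome 19 and 11.6% on chromosome 7. The shares were lowest on chromosomes 13 (3.75%, 2.81 to 4.89) and 1 (3.97%). On the X chromosome the 127 short introns had a median R1 share of 62.1%, while the longer introns of the same chromosome had one of 55.2%. On the other chromosomes, the mitochondrial one aside, the median of the short introns lay between 51.7% and 57.3%.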

How the data were processed

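The members and lists were chosen with earlier results of these data known. Analysis started from the deposited junction table of build mm9, whose count of reads per junction is the sum of the R1 and R2 numbers in its name in every row. It also used the deposited contig table of the same build, whose signal level per contig has no stated scale; only contig positions were used. Tissue markers used the TPM values deposited by the authors in the mm10 gene tables, where TPM is relative transcript abundance. Aligner and junction caller are not given in the sources used here. R1 is compared with R2 after scaling by their totals (R2 over R1 1.04). Intervals are exact Clopper-Pearson for shares and ratios, exact Poisson for counts and from order statistics for medians, at 95%, and cover counting error only. Coordinates are given as 1-based, read as the first and last intron base. Contig edges lay within a few bases of the junction ends, which cannot tell this reading from one shifted by a single base.

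Named introns were the 8 most used, the 4 furthest to each side, the 3 shortest and 3 longest (ties by reads), the 4 longest runs and the 4 with the strongest competitor. The pairs of neighbouring introns (all sides, and sides with 1 longer intron), tissue markers, unflagged, mitochondrial, chromosome 17 and uncovered introns, and the 10 below 50 bases were added after the data were seen. Genes and sequences of the introns are not given, since the reference annotation used here is of build GRCm38; from it only intron lengths were taken. Python 3.11.15, numpy 2.4.6, pandas 2.3.3, scipy 1.17.1 and matplotlib 3.10.9 were used, and scripts were tested on simulated data. The transcript tables were not used here.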

Additional observations from a re-analysis of the deposited data

How the results depend on the processing

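The number of short introns was 743 with a minimum of 1000 reads and between 4530 and 5171 with at least 50 reads under R1 or R2 alone. Weighted by reads, the most frequent length was 90 bases, the length of the most used intron; it was 82 under either number alone and 87 with a 5-base running mean. The ratio of median reads to longer introns (1.24) was 1.03 against those under 200 bases, 1.34 against those of 1000 or more, 1.42 with a minimum of 50 reads, 1.11 with 200, and 1.22 to 1.27 under R1 or R2 alone. The median R1 share (54.6%) was 48.8% pooled over reads, and 55.2%, 53.6% and 49.6% with minimums of 50, 200 and 1000 reads. The share over 2-fold apart (14.5%) was 12.9% with the median junction made even, 28.2% with a bound of 1.5-fold and 5.72% with 3-fold. The share inside a contig (86.8%) was 94.1% if 50% of the bases sufficed, 90.2% with a minimum of 200 reads and 94.8% with 1000. The share with a competing junction (10.2%) was 51.1% when junctions of any read number counted and 6.18% when at least 5% of the short intron's reads were required. Against the adjacent longer intron, the median fold was 1.00 to 1.01 under R1 or R2 alone. Leaving out the 60 introns with flag A at 0, 1.21% of the short introns, could hardly move the 8 results above the adjacent pairs. The length peak, the median R1 share and the other shares stayed within their intervals, and the counts within 1.5-fold. The ratio of median reads, with unflagged longer introns left out too, was again 1.24. No paired analysis was possible because there is a single group and R1 and R2 carry no replicate number. The split between R1 and R2 is least precise at the read minimum.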

Other observations

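Below the length bound, 10 of the 9859 junctions of 31 to 49 bases had 100 reads or more under the same rule. Their median was 237 reads, the most used had 1541, and their median R1 share was 54.8%. None carried flag A or flag C. The shortest junction in the whole table was 31 bases long.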
